A study of Mus musculus with 6 samples.

Results

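The genes described here carry out DNA replication and mark S phase, the stage of the cell cycle in which the genome is copied. They were given as a list of 38 gene symbols, and a gene counted as measured when at least 1 probe set of the array carried its symbol and no other. By that rule 37 of the 38 were measured, of 18193 genes on the array, through 83 probe sets; Chaf1a, which encodes a subunit of a histone chaperone that acts behind the replication fork, had no such probe set. The samples were endothelial cells recovered from Matrigel, a basement membrane gel, after plugs of it had been implanted intraperitoneally in Balb/c nude hosts. The labels do not say how the cells were separated from others. The 3 MFAP5 samples came from plugs made up with recombinant microfibrillar-associated protein 5, a secreted protein of elastic microfibrils, and the 3 control samples from plugs without it. Each sample was hybridized to 1 Affymetrix mouse expression array. Nude mice, the hosts of both groups, lack most mature T cells but keep other leukocytes, and the labels give neither their ages nor the number of animals behind a sample. All p-values below are thus set by how far these samples spread, which may be technical.

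Before a cell divides, origins of replication are licensed: the origin recognition complex, Cdc6 and Cdt1 load the ring of Mcm2 to Mcm7 onto DNA. In S phase Cdc45 and the GINS complex turn that ring into a moving helicase, polymerases copy both strands around the Pcna clamp, and the enzymes of nucleotide synthesis supply the building blocks. Most of these genes are targets of E2F transcription factors, which are released when cyclin and kinase complexes inactivate the retinoblastoma protein. In quiescent vessels few endothelial cells are in cycle, while cells at sprouting vessels divide.

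The values are log2 signals relative to each probe set's median over the 6 arrays, and a gene's value is the mean of its probe sets. They show how a gene differs between arrays and not how abundant its transcript was, so genes cannot be ranked by level, and the labelled cell type cannot be checked by the presence or absence of its markers. That a higher value means more signal is likewise not stated in the sources used here. The log base was read from the values and not from the labels, and every fold rests on base 2. Array medians over all genes lay between -0.043 and 0.078. Control replicate 1 differed from both other control arrays: over all genes its correlation with them was 0.046 and 0.10, while they correlated with each other at 0.70, as points that share an array and its centring. The bacterial spike-ins, added at hybridization, had a mean of -0.32 in that array, 0.64 and 0.65 in the other controls and between -0.038 and -0.0065 in the MFAP5 arrays. Values of the genes in which that array differed most are given with and without it.

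An E2F motif, which the list did not use, was found in the promoters of a minority of the replication genes, most of them licensing genes. RefSeq promoters, from 250 bases before to 50 after a start site in GRCm38.p6, were matched by symbol for 33 members. Mcm4, Gins1, Gins2, Pole and Ccne2 had no entry. The E2F motif was searched as exact words only, and variants of them were not counted. The words, searched on both strands, were TTTCCCGC, TTTGGCGC, TTTCGCGC and TTTGCCGC. At least 1 of these was found for 12 of the 33 members (36.4%), against 744 of all 32851 promoters (2.26%) or 704 of 27025 genes with an entry (2.61%). By role, 7 of 8 licensing genes held it, as did 2 of 3 polymerase genes, 1 of 4 clamp and loader genes, 1 of 4 genes of strand joining and single-strand binding, and 1 of 3 chromatin genes. It was found in 0 of 6 nucleotide supply genes, 0 of 3 genes of G1/S control and repair and 0 of 2 helicase activation genes. A 30-base window around the first match of each licensing gene is shown because they make up 7 of the 12 genes with a match, 5′ to 3′ on the gene's strand, with the matched letters in capitals.
Mcm3: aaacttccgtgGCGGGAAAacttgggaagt
Mcm5: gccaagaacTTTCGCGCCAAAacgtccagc
Mcm6: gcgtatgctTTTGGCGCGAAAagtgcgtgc
Mcm7: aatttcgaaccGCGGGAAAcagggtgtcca
Orc1: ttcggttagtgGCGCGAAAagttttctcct
Cdc6: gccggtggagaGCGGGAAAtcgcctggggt
Cdt1: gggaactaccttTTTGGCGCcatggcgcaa

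The Mcm3 window is chr1:20820275-20820304 on the minus strand, that of Mcm6 is chr1:128359795-128359824 on the minus strand, and that of Mcm7 is chr5:138172030-138172059 on the minus strand. The others lie on the plus strand: Mcm5 at chr8:75109347-75109376, Orc1 at chr4:108579416-108579445, Cdc6 at chr11:98908002-98908031 and Cdt1 at chr8:122568035-122568064. In Mcm5 and Mcm6 matches on both strands overlap and form 1 stretch of 12 letters. The windows of Mcm3 and Cdt1 lie after the start site and the rest before it. A match describes the letters only, and whether a factor binds there was not measured.

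A CCAAT box, searched as CCAAT on both strands, was found for 20 of 33 members (60.6%), against 41.1% of all genes with an entry. Rrm1, the large subunit of ribonucleotide reductase, had no match to the searched E2F words in its window and CCAAT at bases -91 and -45. Its 250 bases before the start (chr7:102441445-102441694, plus strand) are shown, with CCAAT in capitals, because Rrm1 is 1 of the members with the smallest p below.
Rrm1: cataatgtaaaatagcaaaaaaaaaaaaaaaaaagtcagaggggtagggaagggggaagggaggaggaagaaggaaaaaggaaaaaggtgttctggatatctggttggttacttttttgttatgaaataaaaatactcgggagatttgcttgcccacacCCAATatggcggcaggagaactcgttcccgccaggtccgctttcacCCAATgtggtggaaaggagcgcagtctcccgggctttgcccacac

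The cell cycle homology region, searched as TTTGAA or TTCGAA, was found for 5 of 33 members (15.2%), against 21.7% of genes. The 12 measured members with an E2F match had a median log2 difference between MFAP5 and control of -0.09, and the 20 without had -0.19.

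No replication gene passed the test for a difference between MFAP5 and control samples, in either direction. Of the 37 genes, 30 had a lower mean with MFAP5 and 7 a higher one, with a median log2 difference of -0.12, beside a median of -0.08 and a negative difference in 65.6% of all 18193 genes. With limma and Benjamini-Hochberg adjustment over all genes, 2.79% of genes were called lower and 0.759% higher at an adjusted p under 0.05, and 0 of the 37 were called; the smallest adjusted p was 0.0569. At an unadjusted p under 0.05, 9 of 37 were lower, where 14.4% of all genes were, and 1 was higher, where 5.33% of all genes were. The unmoderated statistic called 0 of the 37, but it called only 1 of all 18193 genes, so that count says little about the members. With it 5 of the 37 were at an unadjusted p under 0.05, where 2815 of all 18193 genes were. The groups did not overlap in 9 genes, all lower with MFAP5, beside 17.8% of all genes lower and 6.51% higher without overlap.

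The intervals of these differences rest on the spread of 3 arrays per group, which may be technical. The 95% intervals had a median half-width of 0.32 on the log2 scale, beside 0.28 over all genes. Of the 37, 36 lay within 1 unit of 0 on both sides, so that a change of 2-fold was outside them. The exception was Mcm4, with an interval of 0.10 to 1.11. Because the samples are bulk, fewer cycling cells and less RNA of these genes per cell cannot be told apart.

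**Figure D1:**
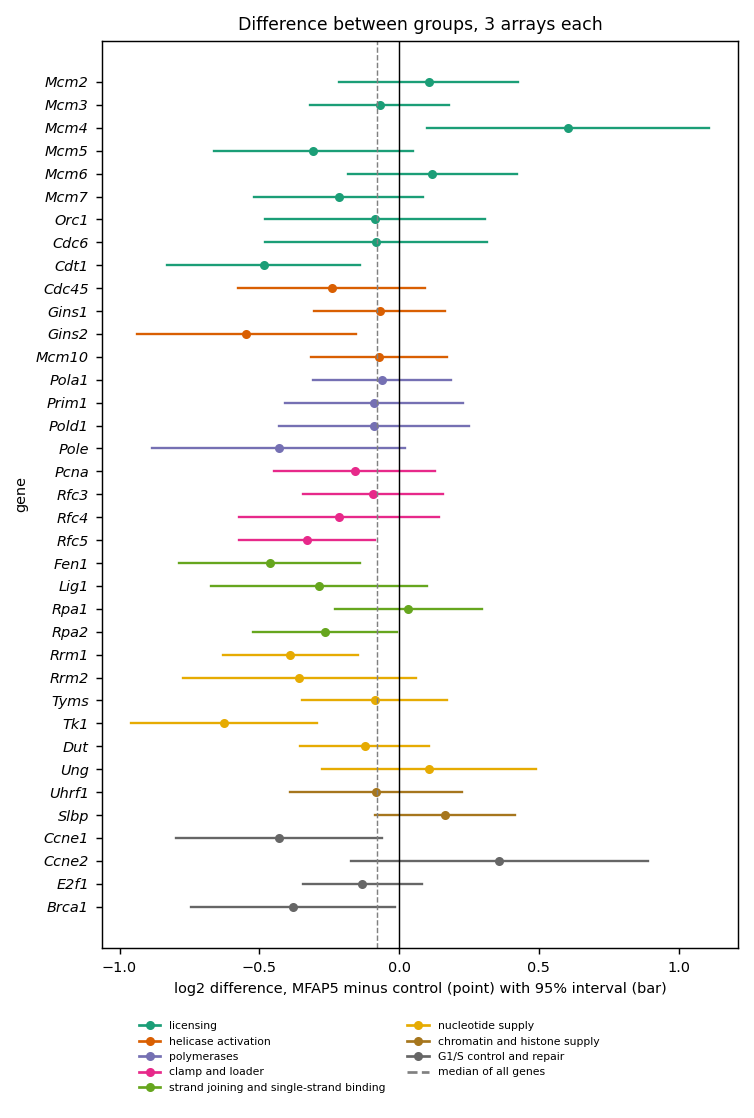
Log2 difference in signal (x axis, MFAP5 minus control) of the 37 measured replication genes (y axis), with points for the limma estimate, bars for the 95% interval (3 arrays per group) and colours for the role; the dashed line is the median of all genes at -0.08. Most points lie left of 0, and 36 of the 37 bars lie within 1 unit of it.

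The MFAP5 samples spread widely in these genes. In MFAP5 replicate 1 all 37 genes were below 0, with a median of -0.25. The medians of MFAP5 replicates 2 and 3 were -0.074 and 0.068, and those of control replicates 1, 2 and 3 were 0.051, 0.069 and 0.085. MFAP5 replicate 3 thus lay within the range of the controls, and replicate 1 had the lowest median of the 6 arrays. Among the 3 MFAP5 arrays replicate 1 held the lowest value in 36 of 37 genes, compared with 40.9% of all genes, and replicate 3 the highest in 31 of 37, compared with 34.9% of all genes. Replicate 1 was below every control in 27 genes, replicate 2 in 23 and replicate 3 in 10; over all genes these shares were 42.1%, 34.1% and 38.5%. Without MFAP5 replicate 1 the median difference of the replication genes was -0.05, beside -0.07 for all genes. Without MFAP5 replicate 3 it was -0.22, beside -0.08 for all genes.

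Several marker lists ran in the same order across the 3 MFAP5 arrays. The median of 17 measured mitotic genes was -0.38, -0.15 and -0.0019 in MFAP5 replicates 1, 2 and 3, and between 0.13 and 0.17 in the controls. Adipocyte markers had medians of -4.11, -2.64 and -0.96 in the MFAP5 arrays and of 1.16 to 1.35 in the controls; 10 of 10 measured markers had a lower mean with MFAP5 and 9 were called. Neutrophil markers had medians of -0.46, -0.30 and -0.13 against 0.22 to 0.62, with 5 of 10 called lower. The difference between the 3' and 5' probe sets of beta-actin, a measure of how far labelling reached along a transcript, was 0.14, 0.082 and 0.036 in MFAP5 replicates 1, 2 and 3, above the -0.053 to -0.0048 of the controls. The same measure on Gapdh gave 0.086, -0.038 and 0.034 with MFAP5 and -0.16, 0.033 and -0.033 in control replicates 1, 2 and 3, with neither that order nor a separation of the groups. The part of the marker lists and of these probe set differences in the replication values was not tested. Of 15 endothelial markers 0 were called by limma, with 4 lower at an unadjusted p under 0.05 and a median of -0.20, and the MFAP5 arrays stood at -0.086, -0.15 and -0.019.

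**Figure D2:**
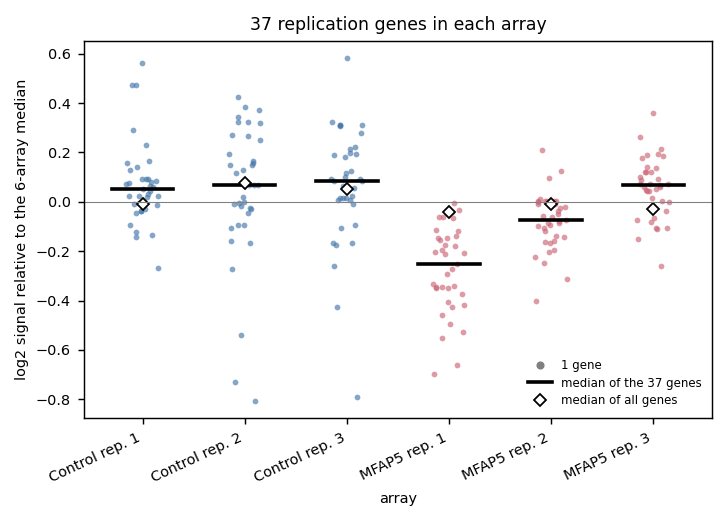
Log2 signal relative to the 6-array median (y axis) of each of the 37 replication genes (points) in each array (x axis), with black bars for their median and diamonds for the median of all genes. All points of MFAP5 replicate 1 lie below 0, while MFAP5 replicate 3, with a median of 0.068, lies among the controls.

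Licensing genes did not move as a block. Of the 9, 6 had a negative and 3 a positive difference, with a median of -0.08. Cdt1, the loading factor whose activity is limited to once per cycle, was the lowest: it stood at 0.066, 0.16 and 0.22 in the 3 control replicates and at -0.66, -0.084 and -0.26 in the MFAP5 replicates. All MFAP5 values were below all control values, and the difference was -0.48 ± 0.15 (SE, n = 3 per group; limma adjusted p = 0.131). Its 3 probe sets were at -0.81, -0.57 and -0.08. Cdc6, the ATPase that recruits Cdt1 and the Mcm ring, stood at 0.47, -0.010 and -0.17 in the controls and at -0.15, 0.010 and 0.18 with MFAP5. The groups overlapped, and control replicate 1 held the highest value (difference -0.08 ± 0.17; adjusted p = 0.817). Without that array the difference was 0.11. Orc1, the largest origin recognition subunit, was at -0.09, and MFAP5 replicates 1 and 3 were its lowest and highest arrays at -0.35 and 0.36.

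The 6 subunits of the Mcm2 to Mcm7 ring differed in sign. Mcm2 stood at 0.078, -0.16 and -0.17 in the controls and at -0.20, 0.0050 and 0.26 in the MFAP5 replicates, with full overlap (difference 0.11 ± 0.14; limma adjusted p = 0.702). Mcm3, Mcm5 and Mcm7 were at -0.07, -0.31 and -0.22, with adjusted p between 0.314 and 0.746. For Mcm5 and Mcm7 the lowest array was MFAP5 replicate 1, at -0.43 and -0.29, and MFAP5 replicate 3 lay within the controls, at 0.14 and 0.12. Mcm6 was at 0.12.

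Mcm4 had the largest positive difference of all members, and that value depended on a single probe set. Its gene values were 0.059, -0.81 and -0.79 in the controls and -0.032, 0.12 and 0.19 in the MFAP5 arrays. Control replicates 2 and 3 were low, while control replicate 1 lay among the MFAP5 values (difference 0.61 ± 0.22; limma adjusted p = 0.186). Probe set 1436708_x_at stood at 0.17, -1.59 and -1.37 in the controls and between -0.089 and 0.15 with MFAP5. The other Mcm4 probe set, 1416214_at, ranged only from -0.21 to 0.22 over the 6 arrays, with a difference of 0.23. Mcm6 had the same pattern: 1438852_x_at stood at 0.40, -0.86 and -0.88 in the controls and between -0.061 and 0.22 with MFAP5, while its other probe sets had differences of -0.14 and -0.02. The suffix _x_at marks probe sets that the maker designed with probes that can bind other transcripts too. With such probe sets left out, an alternative added after the values were seen, Mcm4 was at 0.23 and Mcm6 at -0.14.

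All 4 helicase activation genes had a negative difference, and their median was -0.16. Gins2, a GINS subunit, stood at 0.051, 0.39 and 0.58 in the controls and at -0.50, -0.059 and -0.065 with MFAP5. The groups did not overlap (difference -0.55 ± 0.17; limma adjusted p = 0.133), and its 2 probe sets were at -0.57 and -0.52. Gins1 stood at 0.024, -0.018 and 0.016 in the controls and at -0.17, -0.086 and 0.073 with MFAP5, a difference of -0.07 ± 0.10 with an interval of -0.30 to 0.16. Cdc45, the third partner of the active helicase, was at -0.24, and Mcm10, which helps to open the origin, at -0.07, both with overlapping groups.

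The 4 polymerase genes had a median of -0.09. Pole, the catalytic subunit of the leading-strand polymerase, was the lowest at -0.43 ± 0.20 (adjusted p = 0.273). Control replicate 1, at -0.12, lay inside the MFAP5 range of -0.55 to 0.12, while control replicates 2 and 3 were at 0.43 and 0.31. Prim1, the primase that lays the RNA primer, Pold1, of the lagging-strand polymerase, and Pola1, which extends the primer, were at -0.09, -0.09 and -0.06.

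Among the clamp genes Pcna, the sliding ring that holds polymerases on DNA, stood at 0.091, -0.023 and 0.023 in the controls and at -0.34, -0.14 and 0.093 with MFAP5. The highest and the lowest array were both MFAP5 arrays (difference -0.16 ± 0.13; limma adjusted p = 0.513), and the interval ran from -0.45 to 0.13. Of the clamp loader subunits, Rfc3 stood at 0.17, -0.028 and -0.0088 in the controls and at -0.18, -0.035 and 0.062 with MFAP5 (difference -0.09 ± 0.11). Rfc4 was at -0.21 and Rfc5 at -0.33 (adjusted p = 0.478 and 0.142). Rfc5 did not overlap between groups, with controls from 0.073 to 0.20 and MFAP5 samples from -0.33 to -0.073.

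Genes of strand joining and single-strand binding had a median of -0.28. Fen1, the nuclease that trims Okazaki fragments, stood at 0.024, 0.32 and 0.31 in the controls and at -0.42, -0.31 and -0.0020 with MFAP5. Its groups did not overlap, although the lowest control and the highest MFAP5 array lay close together (difference -0.46 ± 0.14; limma adjusted p = 0.124). Lig1, the ligase that seals the fragments, was at -0.29 with overlap. The single-strand binding subunits parted: Rpa2 was at -0.27 without overlap and Rpa1 at 0.03 with overlap, and both missed the threshold (adjusted p = 0.239 and 0.894).

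**Figure D3:**
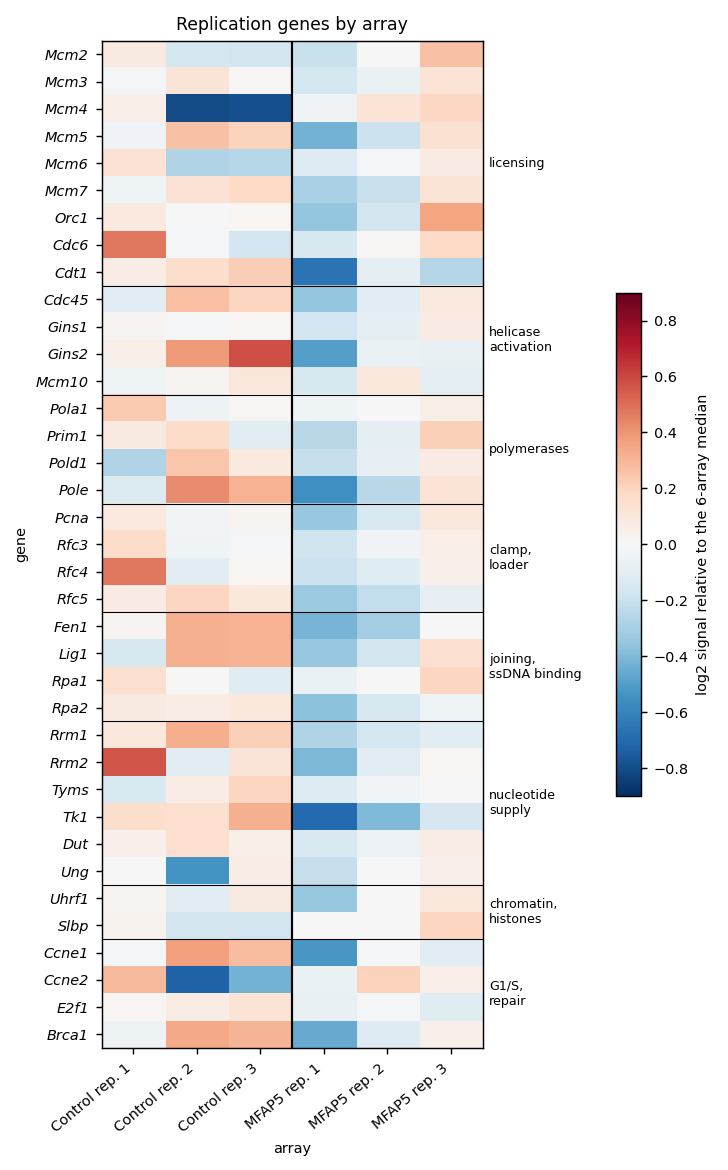
Log2 signal relative to the 6-array median (colour scale) of the 37 replication genes (rows, grouped by role) in the 6 arrays (columns). The column of MFAP5 replicate 1 is below 0 in all 37 genes, and Mcm4 and Ccne2 are low in control replicates 2 and 3.

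Nucleotide supply held the 2 members with the smallest p. Tk1, the salvage thymidine kinase of S phase, stood at 0.16, 0.15 and 0.32 in the controls and at -0.70, -0.40 and -0.15 with MFAP5. All 3 MFAP5 values were below the controls, and the difference of -0.63 ± 0.15 (SE, n = 3 per group) corresponded to a 1.54-fold lower signal with an interval of -0.96 to -0.29. Tk1 missed the threshold with limma (adjusted p = 0.0569) and rested on 1 probe set. It passed without MFAP5 replicate 3 (difference -0.76, limma adjusted p = 0.0283), where 2.34% of all genes were called lower. It also passed without control replicate 1 (limma adjusted p = 0.0468), where 10.5% were. Tk1 missed without control replicate 2, control replicate 3, MFAP5 replicate 1 or MFAP5 replicate 2. In those fits the smallest limma adjusted p of any member ran from 0.0909 to 0.229. Rrm1 stood at 0.094, 0.32 and 0.21 in the controls and at -0.27, -0.16 and -0.10 with MFAP5. Its groups did not overlap either (difference -0.39 ± 0.11; adjusted p = 0.0886).

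Both subunits of ribonucleotide reductase had a probe set that passed the test over all 45037 probe sets, where 1.72% were called lower and 1.56% higher. These were the only 2 of the 83 member probe sets to do so. For Rrm1 it was 1448127_at, at 0.20, 0.34 and 0.40 in the controls and at -0.37, -0.20 and -0.23 with MFAP5 (difference -0.58; limma adjusted p = 0.0375). The other Rrm1 probe sets were at -0.33 and -0.25. For Rrm2, the small subunit whose level follows S phase, it was 1416120_at, at 0.42, 0.21 and 0.45 in the controls and at -0.63, -0.33 and -0.21 with MFAP5 (difference -0.75; adjusted p = 0.0320). Its other probe sets were at -0.21 and -0.11, and 1448226_at stood at 0.97 in control replicate 1 but at -0.42 and -0.17 in the other controls. The gene value of Rrm2 was -0.36 ± 0.18 (adjusted p = 0.316). Neither probe set passed without control replicate 2, control replicate 3, MFAP5 replicate 1 or MFAP5 replicate 2 (adjusted p from 0.0700 to 0.166), and the Rrm1 probe set also missed without MFAP5 replicate 3 (adjusted p = 0.0943).

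**Figure D4:**
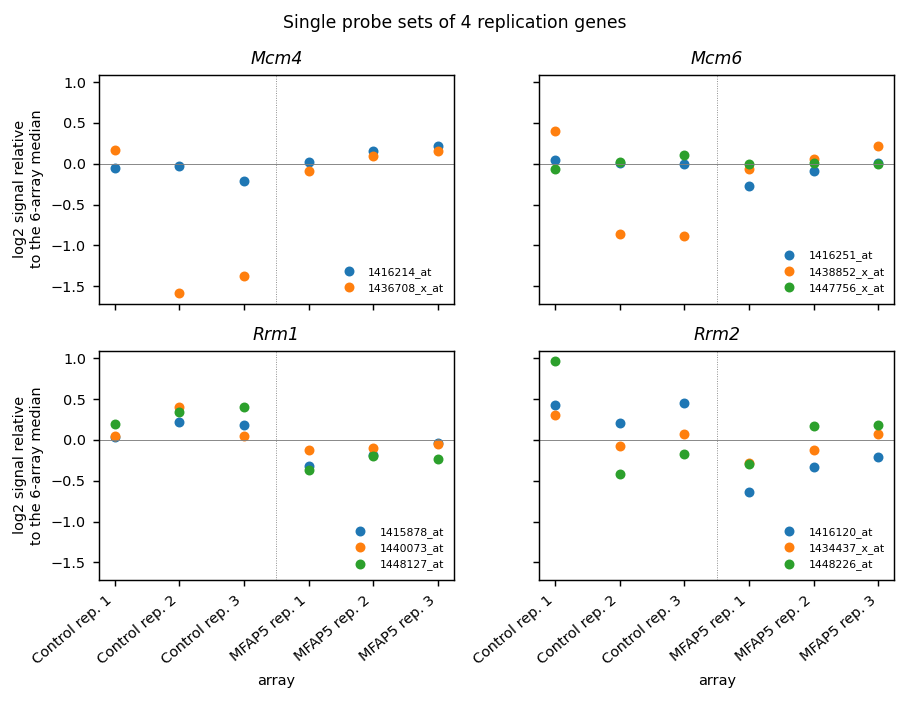
Log2 signal relative to the 6-array median (y axis) of the single probe sets (colours) of Mcm4, Mcm6, Rrm1 and Rrm2 in the 6 arrays (x axis). The probe sets of Rrm1 are higher in the controls, whereas 1436708_x_at of Mcm4 and 1438852_x_at of Mcm6 lie at -0.86 or lower in control replicates 2 and 3.

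Tyms, which makes thymidylate, Dut, which removes dUTP, and Ung, which excises uracil from DNA, were at -0.09, -0.12 and 0.11, with adjusted p from 0.521 to 0.752. Ung had a single low array, control replicate 2 at -0.54, and its other arrays lay between -0.21 and 0.063. Without that array its difference was -0.08. Of the chromatin genes, Uhrf1, which guides maintenance methylation to new strands, was at -0.08. Slbp, which binds the stem-loop of histone mRNAs, stood at 0.034, -0.17 and -0.17 in the controls and at -0.0034, 0.0034 and 0.19 with MFAP5 (difference 0.16 ± 0.11; limma adjusted p = 0.437), with overlap.

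The 2 E cyclins, which drive entry into S phase, had opposite signs. Ccne1 stood at -0.011, 0.37 and 0.28 in the controls and at -0.53, -0.020 and -0.11 with MFAP5, without overlap (difference -0.43 ± 0.16; limma adjusted p = 0.196). The margin was small, between control replicate 1 and MFAP5 replicate 2. Ccne2 stood at 0.29, -0.73 and -0.43 in the controls and at -0.060, 0.21 and 0.060 with MFAP5. Here control replicate 1 was the highest array and the other controls the lowest (difference 0.36 ± 0.23; adjusted p = 0.425). E2f1, the transcription factor of this program, stood at 0.021, 0.068 and 0.12 in the controls and at -0.066, -0.0078 and -0.11 with MFAP5, without overlap at a small size (difference -0.13 ± 0.09; adjusted p = 0.468). The 3 probe sets of E2f1 were at 0.06, -0.09 and -0.36, and the last of them is an _x_at probe set. With _x_at probe sets left out E2f1 was at -0.015 (limma adjusted p = 0.953). Brca1, a repair factor that is transcribed in S phase, was at -0.38 ± 0.16 (adjusted p = 0.237).

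Control replicate 1 departed from the other controls in these genes in both directions: it was above both in 14 and below both in 18 of the 37. Over the 37 genes, which share arrays and centring, control replicates 2 and 3 correlated at 0.84, and replicate 1 correlated with them at -0.38 and -0.31. The largest gaps were those of Ccne2 and Mcm4, at 0.87 and 0.86 above the mean of the other controls, followed by Cdc6 at 0.57, Rrm2 at 0.55 and Rfc4 at 0.51. Pole, Lig1, Pold1 and Gins2 differed from it by -0.49, -0.46, -0.44 and -0.43. With that array left out, the group difference of Rrm2 went from -0.36 to -0.17, that of Rfc4 from -0.21 to -0.04 and that of Mcm6 from 0.12 to 0.25. Those of Pole, Lig1 and Pold1 went from -0.43, -0.29 and -0.09 to -0.59, -0.44 and -0.24. These 6 genes missed the threshold both ways (limma adjusted p from 0.0824 to 0.801 without the array). Without control replicate 1 limma called 6 members. Mcm4 (0.89; adjusted p = 0.00675) and Ccne2 (0.65; adjusted p = 0.0265) were higher, as were 4.18% of all genes. Rrm1 (-0.45; adjusted p = 0.0318), Gins2 (-0.69; adjusted p = 0.0359), Fen1 (-0.56; adjusted p = 0.0422) and Tk1 (-0.65; adjusted p = 0.0468) were lower, as were 10.5% of all genes. These counts are set by which control arrays are used, so they stand beside the 0 of all 6 arrays.

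Among related genes outside the list, few replication and E2F target genes were called, and a larger share of the mitotic genes was. Over all genes 2.79% were called lower and 14.4% were lower at an unadjusted p under 0.05. The 52 other measured replication genes, such as the remaining subunits of the complexes above, had a median of -0.08, beside -0.08 for all genes. At an unadjusted p under 0.05, 11 were lower and 2 higher. Without overlap 18 were lower and 2 higher, beside 17.8% and 6.51% of all genes. Limma called 1 of the 52, and it was lower. It was Asf1b, a chaperone that hands histones to the fork, at 0.15, 0.41 and 0.36 in the controls and at -0.50, -0.20 and -0.15 with MFAP5 (difference -0.59 ± 0.13; limma adjusted p = 0.0450). It missed the threshold when any array but control replicate 1 was left out (adjusted p from 0.0587 to 0.191), and also with spike-in signal in the model, the probe set of largest SD per gene or the unmoderated statistic (adjusted p = 0.119, 0.0686 and 0.211). The unmoderated statistic called only 1 of all 18193 genes. Next by p were Gins4 at -0.35 and Orc2 at -0.40 (adjusted p = 0.0833 and 0.0959). Of 28 other E2F target and S phase checkpoint genes limma called 0, with 6 at an unadjusted p under 0.05, all lower. Ccna2, the cyclin of S and G2 phase, was at -0.57, Lmnb1, a nuclear lamin, at -0.50 and E2f7, a repressor of the E2F family, at -0.48 (adjusted p = 0.0572, 0.0723 and 0.0733). All 17 measured mitotic genes had a negative difference, beside 65.6% of all genes, and 8 were lower at an unadjusted p under 0.05. Limma called 3 of them lower, Kif20a, Ccnb2 and Plk1, with a median of -0.33 over the 17. None of the 3 passed without control replicate 2, control replicate 3, MFAP5 replicate 1 or MFAP5 replicate 2 (adjusted p from 0.0629 to 0.202), or with spike-in signal in the model (adjusted p from 0.0790 to 0.136).

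Regulators of the G1 to S step included a pair of calls that held with any array left out. The 18 genes of G1 cyclins, their kinases and inhibitors had a median of -0.03, beside -0.08 for all genes. At an unadjusted p under 0.05, 3 were lower and 3 higher, beside 14.4% and 5.33% of all genes. Limma called 2 lower and 0 higher, beside 2.79% and 0.759% of all genes. Both that fell encode inhibitors of cyclin-dependent kinases. Cdkn2c, which encodes p18INK4c, stood at 0.50, 0.83 and 0.84 in the controls and at -0.78, -0.93 and -0.50 with MFAP5, a difference of -1.46 ± 0.15 (limma adjusted p = 0.00137). Cdkn1c, which encodes p57KIP2, stood at 0.42, 0.68 and 0.69 in the controls and at -0.42, -0.70 and -0.77 with MFAP5, a difference of -1.22 ± 0.13 (adjusted p = 0.00188). Each was lower in all 3 MFAP5 arrays, by 2.75-fold and 2.34-fold, and passed with any single array left out (adjusted p from 0.00118 to 0.0169), but missed with the unmoderated statistic (adjusted p = 0.0994 and 0.0989). The unmoderated statistic called only 1 of all 18193 genes. Cdkn2c and Cdkn1c shared the MFAP5 arrays with the lower adipocyte markers given above, whose part in these differences was not tested. Cdkn1b, the inhibitor p27KIP1, was at 0.63 and did not pass (adjusted p = 0.0853). Its groups did not overlap, with the MFAP5 arrays higher. Control replicate 1 stood at -0.089, and control replicates 2 and 3 at -0.77 and -0.55. Without control replicate 1 the difference was 0.82 (limma adjusted p = 0.0096), where 4.18% of all genes were called higher.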

How the data were processed

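Total RNA of 6 samples was amplified, biotin-labelled and hybridized to 1-colour arrays, per the labels' protocols. The deposited values are log2 signals, read so from the values: they are positive and negative, with a median of 0 per probe set and a widest range of 8.24, and a natural log would make all differences printed too small. The signals come from MAS5 per the submitters' processing notes; how they were scaled, centred and logged is not given in those sources. Because the deposited values carry no level, the planned filter on level was replaced by a filter on SD.

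Of 45101 probe sets, 64 controls were left out; 34945 had 1 symbol, 932 several, and 9160 were unnamed. Symbols were updated through Entrez IDs (34741 matched, RefSeq, GRCm38.p6). limma 3.58.1 in R 4.3.3 (lmFit, eBayes, two-sided, Benjamini-Hochberg, threshold 0.05) with the 6 samples in 2 groups was run on all genes and on all probe sets, and was tested on simulated data. Every member is named. Full values were given for the 3 smallest p, the 3 largest differences in each direction and Mcm2, Rfc3, Gins1, Pcna, Ccne1, E2f1 and Cdc6, and other lists were named by calls and smallest p. Rrm1 and Rrm2 probe sets, Mcm4 and Mcm6 probe sets and single arrays of other members were chosen after their values were seen. The members and lists were chosen with earlier results of these data known. Alternatives covered scaling, probe set choice, filters, a block for the replicate number, array weights, the spike-in level and each array left out. Precision is limited by the number of arrays.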

Additional observations from a re-analysis of the deposited data

How the results depend on the processing

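The count of 0 replication genes called was kept with quantile normalization, array median centring, a variance trend, the probe set of largest SD, the median of probe sets, the spike-in covariate and without _x_at probe sets. It was also 0 with the unmoderated statistic, which called only 1 of all 18193 genes. Array weights called 2 members higher and 9 lower, where 1125 and 2879 of all 18193 genes were. Without the 50% of genes of smallest SD, which left 24 of the 37, 1 was higher (Mcm4) and 1 lower (Tk1). Of all 9096 genes left there, 304 were higher and 690 lower. Leaving out 1 array gave 0 to 2 members higher and 0 to 4 lower, where 14 to 760 and 205 to 1914 of all 18193 genes were. With the replicate number as a block, 2 were lower, Gins2 and Tk1 (adjusted p = 0.0372 and 0.0349), where 590 of all 18193 genes were lower and 153 higher. Deviations of same-numbered samples correlated at 0.18, 0.055 and 0.072 over genes, not all over 0.1, so the numbers were not taken as pairs; control arrays 1 and 3 correlated best with the MFAP5 array of their own number, and control array 2 with number 3. The median difference of the members was -0.24 with the probe set of largest SD, beside -0.098 for all genes. With 1 array left out it was -0.22 to -0.05, beside -0.11 to -0.05 for all genes.

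Over all genes, 138 were higher and 508 lower. Array weights gave 1125 and 2879, the unmoderated statistic 0 and 1 (2815 at an unadjusted p under 0.05) and the spike-in covariate 48 and 316. The probe set of largest SD gave 223 higher, and the SD filter 304 higher and 690 lower of 9096. With 1 array left out the genes numbered 14 to 760 higher and 205 to 1914 lower, the probe sets 90 to 2821 higher and 251 to 3369 lower. The extremes were without control replicate 1 (most) and control replicate 3 (fewest).

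Members whose sign turned had small differences. Cdc6 was at 0.10 with array weights. Mcm6 was at -0.033 with the median of probe sets, -0.018 with the spike-in covariate and -0.14 without _x_at probe sets. Orc1 was at 0.060 with the probe set of largest SD. Pold1, Rpa1 and Tyms were at 0.064, -0.035 and 0.0069 with the spike-in covariate. With 1 array left out the lowest and highest differences were -0.22 and 0.11 for Cdc6, -0.015 and 0.22 for Mcm2, -0.29 and 0.061 for Orc1, -0.12 and 0.023 for Pola1, -0.24 and 0.023 for Pold1, -0.22 and 0.016 for Prim1, -0.040 and 0.099 for Rpa1, -0.17 and 0.049 for Uhrf1, and -0.084 and 0.22 for Ung. The cause was not tested. Of the comparisons of single members with an alternative, 576 kept sign and side of the threshold, 22 newly passed and 18 turned sign.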

Other observations

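Several regulators of the cell cycle outside the list did not pass the test, and their values had both signs. Myc, a transcription factor that drives growth and entry into the cycle, had a log2 difference of 0.44 ± 0.14 (SE over 3 arrays per group; adjusted p = 0.149 with limma). Cdk6, a kinase that acts with D cyclins, was at 0.35 ± 0.12 (adjusted p = 0.172). Ccnd1, the cyclin D1 gene, was at -0.39 ± 0.19 (adjusted p = 0.308), while Ccnd2 and Ccnd3 were at 0.02 and -0.01. Cdkn1a, which encodes the inhibitor p21, was at 0.38 ± 0.18 (adjusted p = 0.279). Mki67 and Top2a, common markers of cycling cells, were at -0.16 and -0.06, with intervals of -0.50 to 0.19 and -0.30 to 0.18.

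The other replication genes Dck and Hells had a positive difference at an unadjusted p under 0.05. Dck, a deoxycytidine kinase of the salvage pathway, was at 0.62, and Hells, a chromatin remodeller, at 0.40 (limma adjusted p = 0.236 and 0.216). Without control replicate 1 they were at 0.94 and 0.56 (adjusted p = 0.0129 and 0.0325), where 4.18% of all genes were called higher. Both were lowest in control replicates 2 and 3, at -1.04 and -0.81 for Dck and -0.42 and -0.45 for Hells, while control replicate 1 was at 0.056 and 0.048. Orc4, at 0.44, was also called higher without control replicate 1 (limma adjusted p = 0.0284). Orc2, Gins3, Pold4, Asf1b and Rnaseh2a were called lower without that array (limma adjusted p from 0.0181 to 0.0406), where 10.5% of all genes were.

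Among leukocyte and blood lists, limma called 0 of 12 macrophage, 0 of 10 lymphocyte and 0 of 8 erythroid markers. Among stromal lists it called 0 of 8 mesothelial and 0 of 8 pericyte markers. At an unadjusted p under 0.05, 1, 2, 2, 1 and 1 were lower in that order, and 1, 1, 1, 0 and 0 higher. Over all genes 14.4% were lower and 5.33% higher at that p, and 2.79% were called lower and 0.759% higher. Of 10 fibroblast markers 1 fell, Pi16, at -0.93 (adjusted p = 0.0336). The other fibroblast markers had positive differences, with Col1a2, Dcn and Lum at 0.36, 0.36 and 0.27 and an unadjusted p under 0.05 but not called (adjusted p = 0.101, 0.0853 and 0.235). The lists' median differences were 0.08, -0.13, -0.16, -0.09, -0.06 and, for fibroblast markers, 0.27.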
